A study of Mus musculus with 4 samples.

Results

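The metabotropic glutamate receptors are 7-transmembrane receptors that pass the binding of glutamate on to G proteins, in contrast to the ionotropic receptors, which are channels. Group I receptors (here Grm5) act through Gq, phospholipase C and calcium release. Group II (Grm2 and Grm3) and group III (Grm4, Grm6, Grm7 and Grm8) act through Gi/o, which lowers cyclic AMP, and most of them sit on presynaptic terminals, where they restrain transmitter release. The clusters whose gene symbol was Grm2, Grm3, Grm4, Grm5, Grm6, Grm7 or Grm8 were examined in brains with and without the RNA editing enzyme ADAR2. All 7 genes were found, in 9 of 33793 transcript clusters. A transcript cluster groups the probes for 1 transcribed locus, and these 9 held 20 to 34 probes each.

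RNA of whole brain from adult females of the mouse strain 129SV was measured on Affymetrix whole-transcript gene arrays, with 2 wild type and 2 Adar2-/- animals. ADAR2, the product of Adarb1, deaminates adenosines within RNA duplexes to inosine. Per the study's methods, mice of both genotypes carried the pre-edited Gria2 R/R allele, which rescues Adar2-/- mice from early death, so the comparison is of the loss of ADAR2 on this background. All values are deposited normalized log2 signals, and a difference is the mean of the Adar2-/- arrays minus the mean of the wild type arrays, tested with limma over all clusters and adjusted by the Benjamini-Hochberg method. Signals of different clusters come from different probes and were not ranked against each other.

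Adarb1, the targeted gene, had signals of 10.50 and 10.45 in wild type and 9.16 and 8.96 in Adar2-/- brains, a difference of -1.415 (SE 0.118, adjusted p = 0.409). The median signal over all clusters was 6.03 to 6.09 on the 4 arrays. Y-linked genes, absent from females, had 4 clusters between 3.49 and 4.40, taken here as a guide to background. It is not a floor for every cluster, as a cluster inside Grm5 lay at 2.27 to 2.71. Marker lists of some regions differed between the arrays. All 9 clusters of anterior pituitary genes were higher in Adar2-/- (mean signals over the list of 5.14 and 4.82 in wild type against 6.09 and 5.81), led by Prl (4.115) and Gh (3.165) with a list median of 0.18 (0.285 without the first wild type array), and the olfactory bulb list was low on the second Adar2-/- array (7.14, against 7.70 to 7.81 on the others). The part of these differences in the receptor values was not tested. In RNA of whole brain, fewer cells of a type and less RNA per cell cannot be told apart.

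Sequence is shown for 2 of the places where a second transcript shares a receptor locus, a microRNA with its own cluster and the start of Grm7. The microRNA gene Mir592 lies within the span of Grm8, on the same strand. Its mature RNAs are printed 5′ to 3′ from RefSeq (GRCm38.p6), with the seed (bases 2 to 8) in capitals. The 5p form lies at chr6:27936711-27936733 and the 3p form at chr6:27936672-27936693, both on the minus strand, and their seeds differ.
mmu-miR-592-5p: aUUGUGUCaauaugcgaugaugu
mmu-miR-592-3p: uCAUCACGuggugacgcaacau
The stretch just before the start of Grm7 is shown because a cluster on the opposite strand covers it. These 87 bases (chr6:110645262-110645348, plus strand, GRCm38.p6) end 1 base before the RefSeq start of the gene, and the last 10 are in capitals.
Grm7 upstream: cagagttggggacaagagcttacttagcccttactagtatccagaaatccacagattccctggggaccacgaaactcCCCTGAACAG

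None of the 9 receptor clusters passed the test between the genotypes. The count with an unadjusted limma p below 0.05 was 0, where 5.95% of all clusters passed, and the count with an adjusted p below 0.05 was also 0, as it was over the whole array (0%). The differences ranged from -0.125 for Grm3 to 0.07 for Grm4, with adjusted limma p-values of 0.895 to 0.993. Two-sided exact permutation tests over the 4 arrays gave p-values of 0.333 to 1, and with 2 arrays on each side no value below 0.333 is possible. Lower means in Adar2-/- were seen for 6 clusters and higher means for 3, with a median difference of -0.035 beside 0.005 over all clusters. The median of the receptors depended on the scaling and was 0 with quantile normalization, -0.00076 with cyclic loess and -0.075 with median centring, where that of all clusters was -0.035. Among clusters above the median signal, where both Grm6 clusters drop out, it was -0.045 beside -0.025 for all such clusters. The 95% limma intervals of the 9 clusters spanned -0.384 to 0.417 at their ends, so that the largest change that any of them contained was 1.34-fold.

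**Figure D1:**
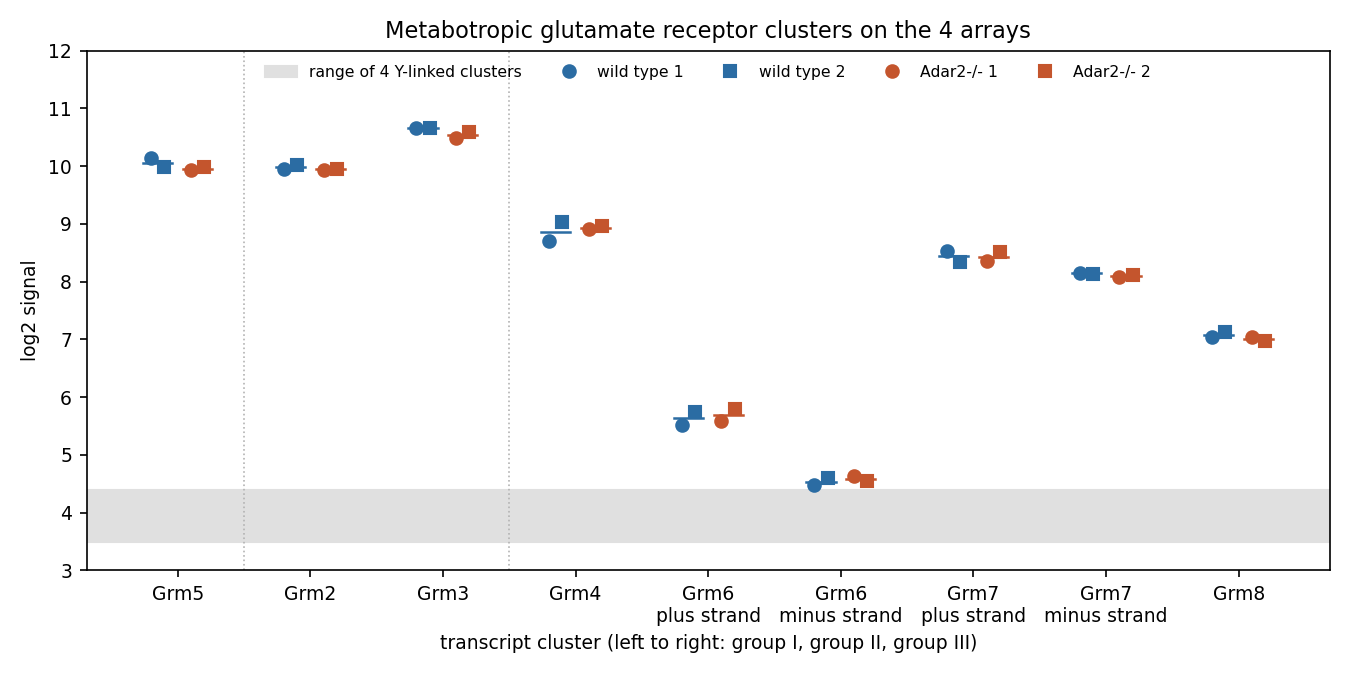
Log2 signal (y axis) of the 9 receptor clusters (x axis, by receptor group) on the 4 arrays, with a point per array, short lines at the genotype means (n = 2) and a grey band for the range of the 4 Y-linked clusters. The genotype means differ by at most 0.125 in each cluster, and the minus-strand Grm6 cluster (4.47 to 4.63) sits just above the band.

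Grm5 is the group I receptor of the list, found mainly at postsynaptic sites of forebrain neurons. Its cluster (chromosome 7, 87584168 to 88135063, plus strand) had signals of 10.14 and 9.98 in wild type and 9.93 and 9.99 in Adar2-/- brains. The first wild type array was the highest, and the other 3 lay within 0.06 of each other, so the genotypes overlapped. The means were 10.06 ± 0.113 and 9.96 ± 0.042 (SD, n = 2 each). The difference of -0.10 (SE 0.113, 95% interval -0.378 to 0.178) had an adjusted p of 0.922.

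Grm2, a group II receptor of presynaptic terminals, was even over the 4 arrays. Its cluster (chromosome 9, 106644517 to 106656109, minus strand) had signals of 9.95 and 10.02 in wild type and 9.94 and 9.96 in Adar2-/- brains, which overlapped. The difference was -0.035 (SE 0.103, 95% interval -0.289 to 0.219), with an adjusted p of 0.979.

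Grm3, the group II receptor that neurons share with astrocytes, had the largest difference of the receptors on the deposited scale. Its cluster (chromosome 5, 9485236 to 9725352, minus strand) had signals of 10.66 and 10.67 in wild type and 10.49 and 10.59 in Adar2-/- brains. Both Adar2-/- arrays lay below both wild type arrays, with means of 10.665 ± 0.0071 and 10.54 ± 0.071 (SD, n = 2 each). The difference of -0.125 (SE 0.105, 95% interval -0.384 to 0.134), or 1.09-fold, did not pass the test (adjusted p = 0.895). The exact permutation p was 0.333, and 40.0% of all clusters had a difference of larger size. Without the first Adar2-/- array the difference was -0.075, and after quantile normalization (-0.091) or cyclic loess (-0.075) it was smaller than that of Grm4 (0.104 and 0.114).

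The astrocyte marker list had a lower median alongside Grm3. The mean signal of the 7 astrocyte markers was 10.17 and 10.15 in wild type and 10.06 and 10.03 in Adar2-/- brains, 5 of the 7 were lower, and their median difference was -0.115 (-0.155 to -0.065 over the other scalings). Lists of several brain regions had median differences of -0.23 for cortical and hippocampal excitatory neurons, -0.175 for striatal projection neurons, -0.12 for cerebellar granule cells and -0.115 for thalamus and midbrain, beside -0.0325 for markers of neurons in general, which turned to 0.017 with cyclic loess. In the same order, the region medians were -0.204, -0.125, -0.070 and -0.070 with cyclic loess. With median centring they were -0.27, -0.215, -0.16 and -0.155. Without the first wild type array the cortical and hippocampal median was -0.115 and that of thalamus and midbrain -0.075, and without the second the granule cell median was -0.08. The part of these lists in the Grm3 value was not tested. A likeness of pattern could not single out genes. By the distance between deviations from each cluster's own mean over the 4 arrays, 10 of 26555 clusters with a single symbol tied as closest to Grm3 (distance 0.0166 on the log2 scale), among them Ankrd35, Cyb561d1 and D15Ertd621e, and 1494 lay within 0.1.

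Grm4, the group III receptor known from parallel fibre terminals of cerebellar granule cells, varied most between the wild type animals. Its cluster (chromosome 17, 27422387 to 27513341, minus strand) had signals of 8.70 and 9.03 in wild type and 8.91 and 8.96 in Adar2-/- brains. The first wild type array was the lowest and the second the highest, so both Adar2-/- arrays lay between them. The means were 8.865 ± 0.233 and 8.935 ± 0.035 (SD, n = 2 each), and the difference was 0.07 (SE 0.141, 95% interval -0.277 to 0.417; adjusted p = 0.966). Without the first wild type array the difference turned to -0.095. Without the second wild type array it was 0.235, the largest size of any receptor in any setting, and was not called there either. The 9 clusters of granule cell markers had mean signals of 9.59 and 9.69 in wild type and 9.46 and 9.50 in Adar2-/- brains, and all 9 were lower in Adar2-/- (median difference -0.12, 0 with a limma p below 0.05), whereas the Grm4 mean was higher. With cyclic loess the granule cell median was -0.070.

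Grm6 is the group III receptor of ON bipolar cells of the retina, where it receives the signal of the photoreceptors. Its plus-strand cluster (chromosome 11, 50850685 to 50866208), on the strand of the gene, had signals of 5.52 and 5.74 in wild type and 5.59 and 5.79 in Adar2-/- brains. These lay between the Y-linked range and the median of each array, and the genotypes overlapped, with a difference of 0.06 (SE 0.133, 95% interval -0.269 to 0.389; adjusted p = 0.969). A second cluster with the same symbol lies inside the gene on the minus strand (50851332 to 50852582) and had signals of 4.47 and 4.60 in wild type and 4.63 and 4.54 in Adar2-/- brains. That is just above the Y-linked range, and its difference was 0.05 (SE 0.111; adjusted p = 0.969). The retina marker list had mean signals of 5.53 and 5.54 in wild type and 5.57 and 5.71 in Adar2-/- brains.

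Grm7, the group III receptor of presynaptic active zones, also had a cluster on each strand. The plus-strand cluster (chromosome 6, 110645581 to 111567230), on the strand of the gene, had signals of 8.54 and 8.34 in wild type and 8.35 and 8.52 in Adar2-/- brains. Each genotype held a high and a low array, and the means of 8.44 ± 0.141 and 8.435 ± 0.120 (SD, n = 2 each) were nearly equal. The difference was -0.005 (SE 0.127, 95% interval -0.318 to 0.308; adjusted p = 0.993), the smallest in size of the receptors on the deposited scale.

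The minus-strand Grm7 cluster (110639753 to 110645916) did not follow the plus-strand one. Its signals were 8.15 and 8.14 in wild type and 8.08 and 8.12 in Adar2-/- brains, so that the genotypes did not overlap and each pair lay close together (gaps of 0.01 and 0.04). The difference of -0.045 (SE 0.102, 95% interval -0.296 to 0.206) had an adjusted p of 0.970. By position, this cluster overlapped the RefSeq Grm7 gene by 568 bases and reached 5596 bases upstream of its start, and 91.6% of its 6164 bases lay within the long non-coding RNA gene Gm20387 (110627715 to 110645400). The printed stretch before Grm7 lies in both the cluster and Gm20387. The symbol Grm7 of this cluster is therefore the one the file gives, and its signal cannot be assigned to the receptor transcript.

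Groups that do not overlap were no more frequent among the receptors than elsewhere. They were seen in 2 of the 9 clusters (Grm3 and the minus-strand Grm7 cluster), or 22.2%, beside 34.1% of all clusters. In the same 2 clusters the difference was larger than the gap between the arrays of either genotype, which was the case in 23.1% of all clusters.

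Grm8, the remaining group III receptor, is likewise presynaptic. Its cluster (chromosome 6, 27275121 to 28135178, minus strand) had signals of 7.04 and 7.12 in wild type and 7.05 and 6.97 in Adar2-/- brains. The first Adar2-/- array lay between the wild type arrays and the second was the lowest. The difference was -0.07 (SE 0.106, 95% interval -0.332 to 0.192; adjusted p = 0.949).

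Mir592, whose mature sequences are given above, was measured by its own cluster (chromosome 6, 27936655 to 27936750), which the file marks as open to cross-hybridization. Its signals were 5.11 and 5.35 in wild type and 5.09 and 5.31 in Adar2-/- brains. Each genotype held a low first and a high second array, and the difference was -0.03 (SE 0.139; adjusted p = 0.985). Neither the host gene nor the microRNA cluster passed the test. A cluster without a symbol on the other strand of Grm8, at the position of the RefSeq pseudogene Gm26310, had signals of 4.13 and 4.29 in wild type and 3.98 and 4.11 in Adar2-/- brains, within the Y-linked range (-0.165, adjusted p = 0.872). One on the other strand of Grm5, at the small nuclear RNA Gm24249, had 2.71 and 2.27 against 2.44 and 2.56, below that range (0.01, adjusted p = 0.993). Both are marked as open to cross-hybridization.

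**Figure D2:**
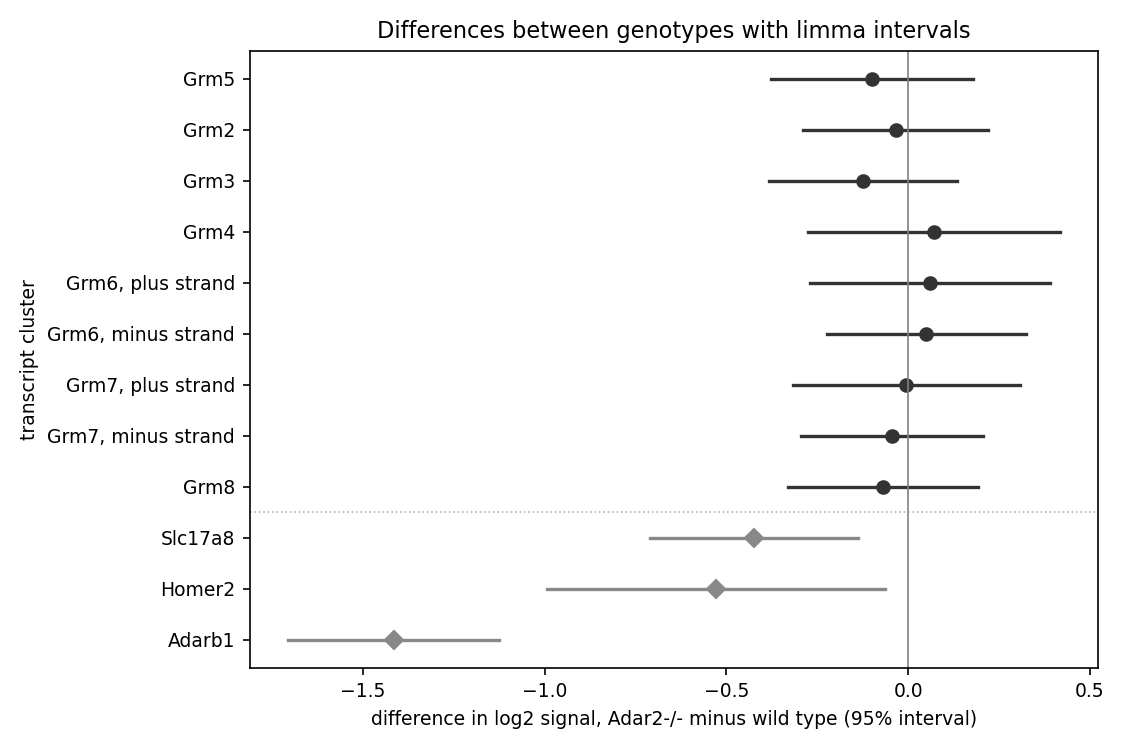
Difference in log2 signal, Adar2-/- minus wild type (x axis), with 95% limma intervals for the 9 receptor clusters (circles) and, for scale, Slc17a8, Homer2 and Adarb1 (diamonds). Every receptor interval includes 0 and ends between -0.384 and 0.417, while Adarb1 lies at -1.415.

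By receptor group, the group I cluster had a difference of -0.10 and the 2 group II clusters a median of -0.08, of which Grm2 turned to 0.014 with cyclic loess. The 6 group III clusters, which include the opposite-strand clusters of Grm6 and Grm7, had 3 lower and 3 higher means and a median of 0.0225. These signs were not stable. Without the first wild type array Grm4 (-0.095) and the Grm6 clusters (-0.05 and -0.015) turned lower, and the plus-strand Grm7 cluster (0.095) turned higher. No array stood apart over the receptors. The first Adar2-/- array was the lowest of the 4 in 4 clusters and the second wild type array the highest in 4, with mean deviations from the cluster means of -0.037 and 0.037.

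The genes that work with these receptors were taken from lists by role. Of 68 clusters for 62 genes, 2 had an unadjusted limma p below 0.05 and both were lower in Adar2-/-, which is 2.94% beside 5.95% of all clusters in either direction and 2.31% that were lower. None passed after adjustment. Of the 68 clusters, 35 were lower and 28 higher, with a median difference of -0.01, and 29.4% did not overlap between the genotypes, beside 34.1% of all clusters.

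The scaffold list holds genes assigned to the receptor tails, not all of whose proteins bind the receptors directly. Homer proteins link group I receptors to calcium stores and to the postsynaptic density. Homer2 (chromosome 7, 81600481 to 81706925, minus strand) had signals of 7.97 and 7.48 in wild type and 7.31 and 7.08 in Adar2-/- brains. The genotypes did not overlap, with means of 7.725 ± 0.346 and 7.195 ± 0.163 (SD, n = 2 each), but the wild type arrays lay 0.49 apart. The difference of -0.53 (SE 0.188, 1.44-fold) passed the unadjusted threshold only, with an adjusted p of 0.834 and an exact permutation p of 0.333. The unadjusted call was lost without the first wild type array (-0.285), without the first Adar2-/- array (-0.645) and without the second (-0.415), where 1 genotype was left with a single array. Homer1, with signals of 8.96 and 8.81 against 8.89 and 8.91, differed by 0.015 (adjusted p = 0.989). Homer3, with 8.77 and 8.88 against 8.96 and 8.86, differed by 0.085 (adjusted p = 0.936). Over all 14 scaffold clusters, 7 were lower and 5 higher, with a median of -0.025. The 14 include a minus-strand cluster at Shank3, opposite to the gene (-0.27, adjusted p = 0.835). Under a pooled variance a cluster with the symbol Shank3 passed the unadjusted threshold. Grasp had signals of 9.51 and 9.48 in wild type and 9.47 and 9.05 in Adar2-/- brains (-0.235, adjusted p = 0.869). Shank3 and Grasp were named after their values were seen. Markers of striatal projection neurons had mean signals of 9.64 and 9.56 in wild type and 9.48 and 9.42 in Adar2-/- brains, and those of cortical and hippocampal excitatory neurons 9.45 and 9.33 against 9.20 and 9.25. The olfactory bulb list had 7.70 and 7.81 against 7.77 and 7.14, and markers of neurons in general 11.72 and 11.72 against 11.69 and 11.65. The part of these lists in the Homer2 value was not tested.

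Glutamate reaches the receptors from vesicles and is cleared by transporters. Slc17a8 (chromosome 10, 89574020 to 89621253, minus strand), which encodes the vesicular glutamate transporter VGLUT3, had signals of 6.63 and 6.70 in wild type and 6.15 and 6.33 in Adar2-/- brains. Both Adar2-/- arrays were lower than both wild type arrays. The targeted gene Adarb1 lies on the same chromosome (77290726 to 77418273), and the part of this position in the Slc17a8 values was not tested. The difference of -0.425 (SE 0.116, 1.34-fold) likewise passed the unadjusted threshold only (adjusted p = 0.834, exact permutation p 0.333). That call was lost without the second wild type array (-0.39) and without the first Adar2-/- array (-0.335). A minus-strand cluster at Glul, the glutamine synthetase gene, was named after its values were seen. It is marked as open to cross-hybridization and had signals of 6.97 and 7.28 in wild type and 7.37 and 7.66 in Adar2-/- brains (0.39, adjusted p = 0.834, exact permutation p 0.333). It missed the unadjusted threshold here and passed it in 5 of the 12 alternatives that kept it, while the plus-strand Glul cluster differed by -0.04 (adjusted p = 0.976). Over the 13 clusters of this list, 8 were lower and 5 higher, with a median of -0.015.

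The G protein pathways below the receptors held no call in the moderated limma fit to all 4 arrays. In the alternatives, the calcium release channel gene Itpr1 passed the unadjusted threshold without the second Adar2-/- array, and the kinase gene Prkca and a minus-strand cluster at the potassium channel gene Kcnj3, opposite to the gene, passed it under a pooled variance; these 3 were named after their values were seen. Of the 9 clusters of Gq effectors, which serve group I, 6 were lower and 3 higher (median -0.045). Of the 14 clusters of Gi/o effectors, which serve groups II and III, 8 were lower and 5 higher (median -0.04). The 12 clusters of signalling regulators, among them arrestins and RGS proteins, had 2 lower and 8 higher (median 0.02).

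Partners of group III receptors at the synapse were also without a call in that fit. Elfn1 and Elfn2, postsynaptic adhesion proteins that bind group III receptors across the synapse, differed by -0.045 (signals of 8.42 and 8.28 against 8.28 and 8.33, adjusted p = 0.975) and -0.09 (8.86 and 9.03 against 8.83 and 8.88, adjusted p = 0.935). In the ON bipolar cascade of Grm6, the channel gene Trpm1 had signals of 5.20 and 5.53 in wild type and 5.44 and 5.59 in Adar2-/- brains, which overlapped (0.15, adjusted p = 0.907). Nyx, the gene of the synaptic protein nyctalopin, had 5.05 and 5.19 against 5.07 and 5.07 (-0.05, adjusted p = 0.967). Gpr179, an orphan receptor of the same synapse, had 6.19 and 6.18 against 6.03 and 6.05 (-0.145, adjusted p = 0.870), and here the genotypes did not overlap and the unadjusted threshold was passed under a pooled variance without shrinkage. The levels of Trpm1 and Nyx lay below the array medians, as did those of Grm6, while Gpr179 lay near them.

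**Figure D3:**
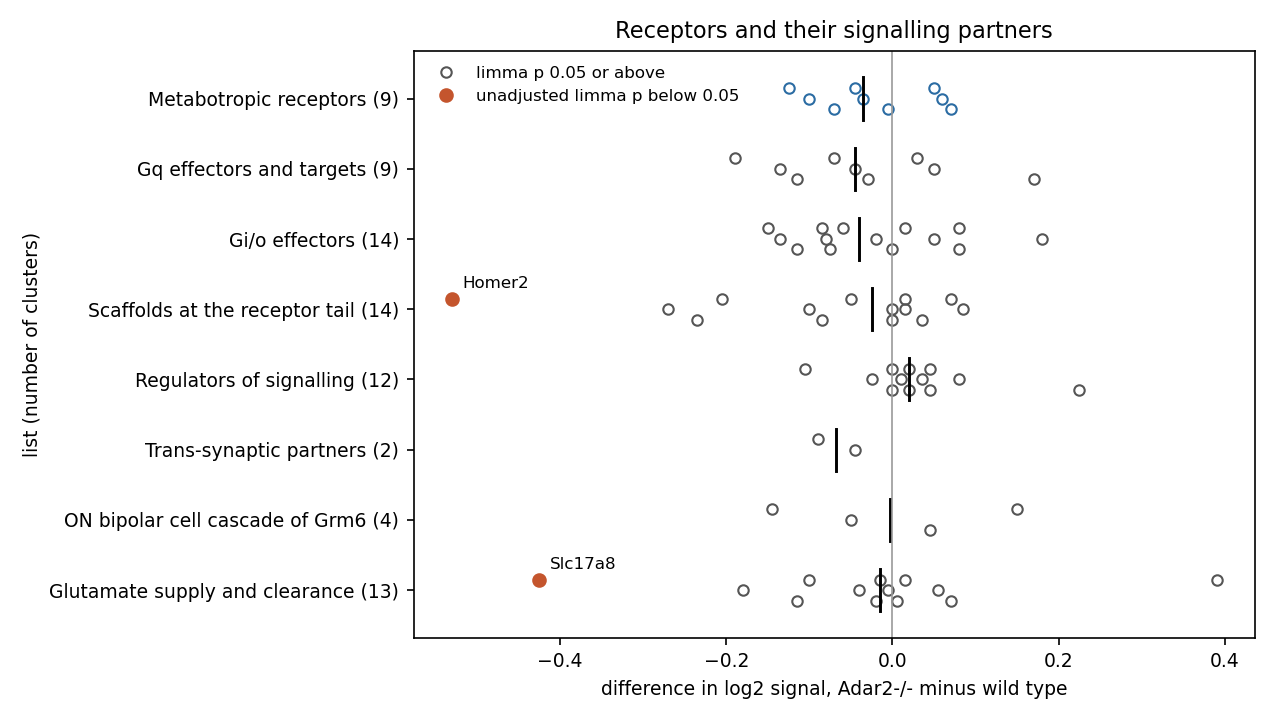
Difference in log2 signal, Adar2-/- minus wild type (x axis), of each receptor cluster and of each cluster in the 7 lists of partners (y axis), with black bars at the list medians and filled points where the unadjusted limma p was below 0.05. All list medians lie between -0.0675 and 0.02, and only Homer2 and Slc17a8 are filled.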

How the data were processed

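Brain total RNA was labelled and hybridised at a core facility. The deposited values are normalized log2 signals with 2 decimals for 33793 transcript clusters on 4 arrays. The submitters' processing notes name Affymetrix Expression Console and RMA. The authors' own log ratios, fold changes and p-values in that table were not used. No detection calls or depth come with these values, and the number of arrays limits the precision.

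Genotypes came from the sample titles. Members were clusters whose symbol equalled a receptor gene, without a filter. The test was a two-sided moderated linear model of genotype alone (limma 3.58.1 under R 4.3.3), adjusted by Benjamini-Hochberg over all clusters, with a threshold of 0.05. An unadjusted limma p below 0.05 was used to count clusters beside the share of the whole array and to choose which partners to name, and single values are given with the adjusted p or an exact permutation test. The labels do not say how replicates were taken, and the study's methods describe the mice as sibling females. The limma p-values, SEs and intervals rest on the spread between these samples, moderated towards a variance taken over all clusters. For Grm3 the SE was 0.105 in this fit and 0.050 under a pooled variance without shrinkage. Named genes were the 7 receptors, Adarb1, listed direct partners, partners with an unadjusted p below 0.05, symbols inside the receptor loci, and the first 3, by name where tied, of those closest in pattern to the receptor with the largest difference. The members and lists were chosen with earlier results of these data known. The file names no genome build, and its coordinates were set against RefSeq spans of GRCm38.p6, with which both ends of Grm3 coincide. Same-numbered arrays did not deviate together (Pearson r over clusters, 0.0516). The alternatives were other scalings, a filter on dim clusters, the replicate block, leaving out each array, other variance models and leaving out clusters open to cross-hybridization. The fit was tested on simulated data. Python 3.11.15, pandas 2.3.3 and matplotlib 3.10.9 were used.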

Additional observations from a re-analysis of the deposited data

How the results depend on the processing

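No receptor cluster reached an unadjusted limma p below 0.05 in any of 13 alternatives, and 105 of 115 receptor values kept their sign or were 0. Quantile normalization gave 0.033 for the plus-strand Grm7 cluster and 0.00125 for Elfn1. Cyclic loess gave 0.035 for the plus-strand Grm7 cluster, 0.014 for Grm2 and -0.00076 for the minus-strand Grm6 cluster, and median centring gave -0.025 for Homer1. Leaving out each array gave -0.095 to 0.235 for Grm4, -0.05 to 0.17 for the plus-strand and -0.015 to 0.115 for the minus-strand Grm6 cluster, -0.105 to 0.095 for the plus-strand and -0.065 to -0.025 for the minus-strand Grm7 cluster, -0.18 to -0.02 for Grm5, -0.175 to -0.075 for Grm3, -0.11 to -0.03 for Grm8, -0.07 to 0 for Grm2, -0.115 to 0.025 for Elfn1, -0.175 to -0.005 for Elfn2, 0.03 to 0.14 for Homer3, -0.06 to 0.09 for Homer1, -0.15 to 0.09 for Mir592, -0.12 to 0.02 for Nyx and -0.015 to 0.315 for Trpm1. It gave 1 to 3 partners and 1221 to 1801 of all clusters with an unadjusted p below 0.05, and of Homer2 and Slc17a8 neither was among them without the first Adar2-/- array. A pooled variance without shrinkage gave 5 partners at that threshold, Slc17a8 but not Homer2 among them, and 15 clusters with an adjusted p below 0.05. The filter on signals above the median left out both Grm6 clusters and gave 989 clusters with an unadjusted p below 0.05. With the replicate number as a block, Grm3 differed by -0.125 (adjusted p = 0.817), no receptor call changed, and 3 partners passed where 2 did without it, the third being the minus-strand Glul cluster. What caused these shifts was not tested.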
